A study of Mus musculus with 7 samples.

Results

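Described here are the 3 chemokines that bind the receptor CXCR3 (Cxcl9, Cxcl10 and Cxcl11), the receptor gene Cxcr3, and the related pair Cxcl16 and Cxcr6, in 7 mouse tumours. The 6 genes were taken by symbol from the 24421 genes of the count table. All 6 are in the table, and 5 had enough reads to be tested; Cxcr3 did not.

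Each tumour came from its own mouse, and the sample titles place the treatment at week 4 with no starting event named. Anti-PD-1, an antibody to a T cell receptor that dampens responses, went to every one of the 7 mice. Control mice, 3 in number, also received anti-KLH, an antibody against a protein that mice do not make, and the other 4 received anti-Lair1, against a collagen-binding inhibitory receptor of leukocytes. The series text describes 2 models: 344SQ lung cancer cells (from K-rasLA1/+p53R172H∆g/+ mice) placed under the skin of 129/Sv mice 6 to 8 weeks old, and engineered KrasLSL-G12D/p53fl/fl mice whose lung tumours were started with an adenovirus carrying Cre at 3 to 4 months of age. It gives doses of 10 mg/kg anti-LAIR and 8 mg/kg anti-PD-1 for the first model. The labels do not say from which model these tumours came, and they state no age, sex or batch for any mouse. Names of control mice start with LOHM or KWM and those of anti-LAIR1 mice with WTSV, so whatever the names record cannot be told apart from the treatment.

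CXCL9, CXCL10 and CXCL11 are small secreted proteins that interferon gamma induces in macrophages, dendritic cells, tumour cells and stroma. They attract activated T cells and NK cells through CXCR3, a receptor that type 1 helper and cytotoxic T cells carry. CXCL16 differs in being made as a membrane protein, from which proteases release the soluble chemokine, and its receptor CXCR6 marks T cells that settle in tissue.

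The 3 CXCR3 ligand genes lie side by side on the reverse strand of chromosome 5 (GRCm38 throughout), Cxcl9 at 92321331 to 92328079, Cxcl10 at 92346638 to 92348889 and Cxcl11 at 92359544 to 92363296, a stretch of 42.0 kb. Cxcl10 and Cxcl11 lie within Art3, an ecto-ADP-ribosyltransferase gene on the opposite strand. RefSeq annotates Cxcl11 in this assembly as a transcribed pseudogene and GENCODE as a polymorphic pseudogene, so its reads show RNA and say nothing of a protein. Cxcl16 is on chromosome 11 (70454389 to 70459984, reverse strand), Cxcr6 on chromosome 9 (123806477 to 123811754, forward strand) and Cxcr3 on chromosome X (101731535 to 101734147, reverse strand).

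The bases just before the start sites of Cxcl9 and Cxcl10 are shown because both genes were higher with anti-LAIR1 and both are textbook targets of interferon and NF-kB signalling. Each run is the 250 bases before the RefSeq start site, 5′ to 3′ on the gene's own strand (reverse), from the RefSeq promoter table of GRCm38.p6, at chr5:92328080-92328329 for Cxcl9 and chr5:92348890-92349139 for Cxcl10. Capitals mark a match, on either strand, to the interferon-stimulated response element (GAAA, any 2 bases, GAAA) or to the NF-kB consensus.
Cxcl9: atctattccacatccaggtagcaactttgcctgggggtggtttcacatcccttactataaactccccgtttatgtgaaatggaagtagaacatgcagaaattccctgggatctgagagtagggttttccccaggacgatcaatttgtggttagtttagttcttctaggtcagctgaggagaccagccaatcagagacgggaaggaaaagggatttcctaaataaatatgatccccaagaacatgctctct
Cxcl10: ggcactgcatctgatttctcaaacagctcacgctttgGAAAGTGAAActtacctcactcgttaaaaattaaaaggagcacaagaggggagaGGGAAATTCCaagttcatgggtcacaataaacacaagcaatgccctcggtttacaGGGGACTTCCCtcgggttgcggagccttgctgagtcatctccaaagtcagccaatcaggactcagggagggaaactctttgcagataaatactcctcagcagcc
Counting the base before the start site as -1, the Cxcl10 run held the interferon-stimulated response element match GAAAGTGAAA from -213 to -204. It also held NF-kB matches GGGAAATTCC from -159 to -150 and GGGGACTTCC from -104 to -95, the latter overlapping a further match shifted by a single base. The Cxcl9 run held a match to neither, and neither run held the gamma-activated site TTCNNNGAA. Of 32851 promoters of the table, searched over their whole length of 300 bases, 3.44% held the first motif, 8.46% the NF-kB consensus and 8.30% the gamma-activated site. A match is a description of letters, and a missing match says only that these letters are not in this window.

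Cxcl9 was the CXCR3 ligand with the highest mean level per kilobase of transcript in either group, and the largest fold change of the 5 tested genes. Levels are given in CPM, each count as a share of its library's total, scaled by edgeR's TMM method. Cxcl9 stood at 14.5, 9.80 and 9.57 CPM in control replicates 1, 2 and 3, and at 61.1, 23.4, 24.4 and 67.6 CPM in anti-LAIR1 replicates 1, 2, 3 and 4. The groups did not overlap, but the anti-LAIR1 tumours fell into a high pair, replicates 1 and 4, and a low pair, replicates 2 and 3. The means were 11.3 ± 2.75 CPM (SD, n = 3) and 44.2 ± 23.5 CPM (SD, n = 4). The log2 fold change, anti-LAIR1 minus control, was 1.95 (SE 0.45, 95% interval 0.90 to 3.01), or 3.87-fold. The edgeR adjusted p was 0.633. DESeq2 gave a log2 fold change of 1.97 with an adjusted p of 0.0271.

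Cxcl10, long used as a readout of interferon signalling, had the same order of groups. It stood at 4.16, 3.37 and 3.46 CPM in the 3 control libraries and at 10.3, 8.32, 6.30 and 19.98 CPM in the 4 anti-LAIR1 libraries. No anti-LAIR1 library fell to the control level, and replicate 4 was far above the other 3. Means were 3.66 ± 0.432 CPM (SD, n = 3) and 11.2 ± 6.06 CPM (SD, n = 4). The log2 fold change was 1.61 (SE 0.39, 95% interval 0.73 to 2.48), a factor of 3.04, with adjusted p values of 0.624 by edgeR and 0.0102 by DESeq2. Without anti-LAIR1 replicate 4 the edgeR log2 fold change was 1.17.

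Cxcl11, last of the 3 in the cluster, stood at 5.98, 6.28 and 5.09 CPM in the controls and at 19.1, 8.91, 9.24 and 28.1 CPM with anti-LAIR1. Again replicates 4 and 1 were high and replicates 2 and 3 lay closer to the controls, with no overlap. Means were 5.78 ± 0.620 CPM (SD, n = 3) and 16.3 ± 9.16 CPM (SD, n = 4). Its log2 fold change was 1.49 (SE 0.42, 95% interval 0.52 to 2.47), a factor of 2.81, with adjusted p values of 0.762 by edgeR and 0.0264 by DESeq2. It was 1.10 without anti-LAIR1 replicate 4.

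**Figure D1:**
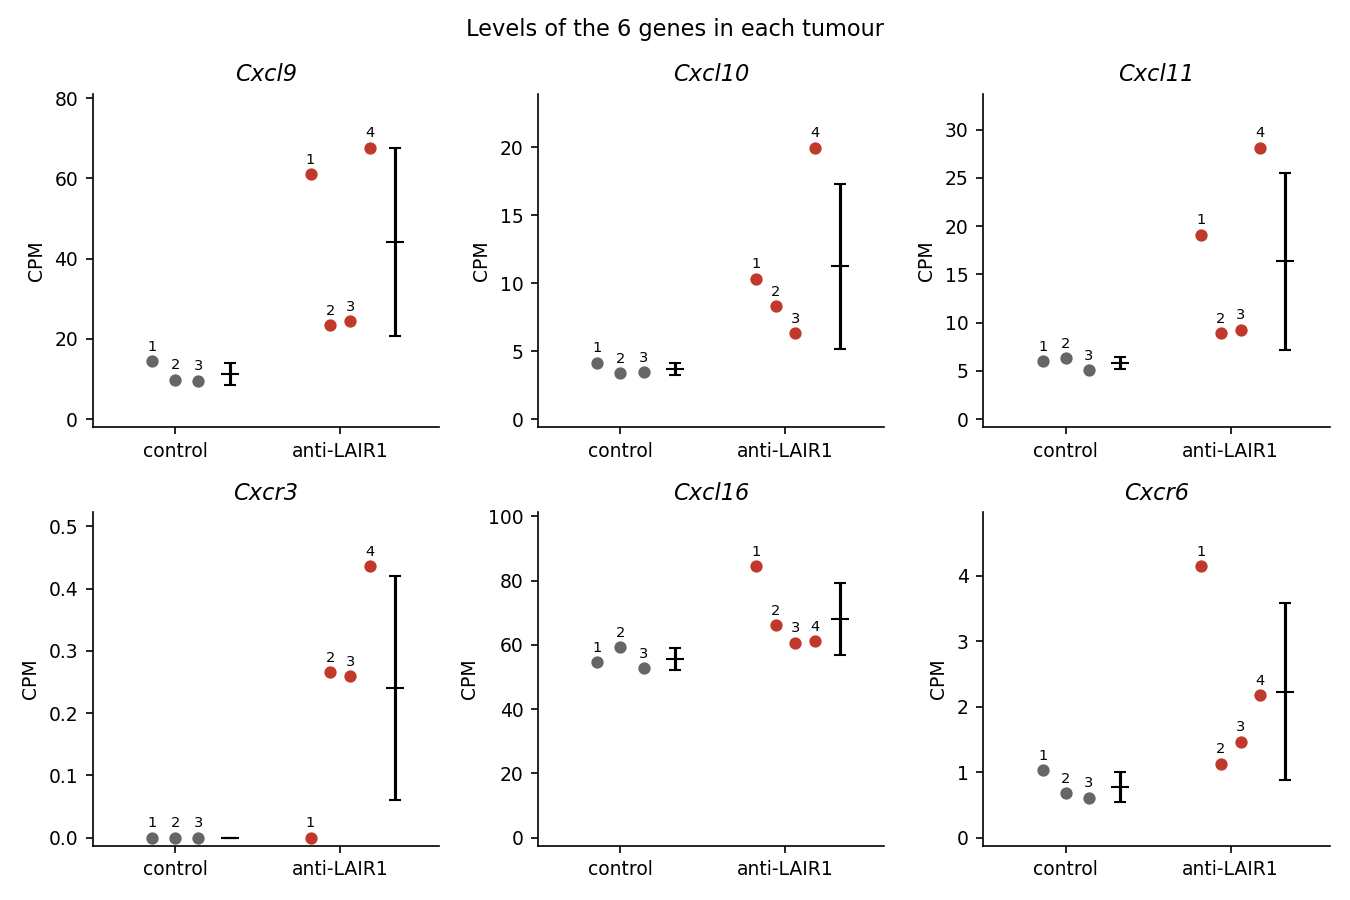
CPM of each of the 6 genes (y axis, linear, 1 panel per gene with its own scale) in control and anti-LAIR1 tumours; points are libraries, numbered by replicate, and the bar beside each group is the mean ± SD. Cxcl9, Cxcl10, Cxcl11, Cxcl16 and Cxcr6 do not overlap between the groups, and Cxcr3 is at 0 in every control and in anti-LAIR1 replicate 1.

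The receptor gene Cxcr3 was barely counted. Its counts were 0, 0 and 0 in the control libraries and 0, 4, 3 and 6 in anti-LAIR1 replicates 1, 2, 3 and 4. Pooled, the 13 counts with anti-LAIR1 correspond to 0.234 CPM (exact Poisson 95% interval 0.125 to 0.400, counting error only), and a control count of 0 allows up to 0.0619 CPM (3 counts over the group). Set against that limit, the pooled value of 0.234 CPM was at least 3.78-fold higher with anti-LAIR1, a ratio that leaves out the counting error of the 13 counts. The lower end of their interval, 0.125 CPM, was also above the limit. An exact two-sided permutation of CPM over the 35 possible assignments of 3 and 4 libraries gave p = 0.143, where the smallest possible value is 0.0286. Reads in replicate 1, which had the second highest level of all 3 ligands, included none of Cxcr3.

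Cxcl16 had the highest level per kilobase of the 6 genes in the controls and the smallest fold change of the 5 tested. Control libraries held 54.6, 59.3 and 52.7 CPM, and anti-LAIR1 libraries 84.5, 66.1, 60.7 and 61.2 CPM. The groups did not overlap, yet anti-LAIR1 replicates 3 and 4 lay only just above control replicate 2, and replicate 1 was the highest. Means were 55.5 ± 3.36 CPM (SD, n = 3) and 68.1 ± 11.2 CPM (SD, n = 4), a log2 fold change of 0.29 (SE 0.13, 95% interval 0.01 to 0.58) with adjusted p values of 0.966 by edgeR and 0.901 by DESeq2. It was 0.18 without anti-LAIR1 replicate 1. The start of Cxcl16 shares 552 exon bases with Zmynd15 on the opposite strand, which averaged 2.00 ± 0.695 CPM (SD, n = 3) and 3.18 ± 1.19 CPM (SD, n = 4), and how reads of the shared bases were counted is not known.

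Cxcr6, the receptor of CXCL16, stood at 1.03, 0.673 and 0.611 CPM in the controls and at 4.15, 1.13, 1.47 and 2.18 CPM with anti-LAIR1. These levels rest on 26, 9 and 6 counts and on 63, 17, 17 and 30 counts. The lowest anti-LAIR1 library, replicate 2, was just above the highest control, and replicate 1 was the highest. Means were 0.771 ± 0.226 CPM (SD, n = 3) and 2.23 ± 1.35 CPM (SD, n = 4), a log2 fold change of 1.48 (SE 0.51, 95% interval 0.34 to 2.63) with adjusted p values of 0.933 by edgeR and 0.484 by DESeq2. Cxcr6 passed the count filter only because of its anti-LAIR1 libraries, of which 4 of 4 reached the needed 0.753 CPM against 1 of 3 controls. Its fold change was 0.99 without anti-LAIR1 replicate 1.

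None of the 5 tested genes passed edgeR's adjusted threshold of 0.05, as was the case for 0 of all 13545 genes tested (0%). At an unadjusted edgeR p under 0.05, 476 genes were higher and 221 lower. All 5 were among the former, which made up 3.51% of genes tested, and all 5 were among the genes whose lowest anti-LAIR1 library exceeded the highest control, 3.06% of genes tested. DESeq2 called 54 genes, of which 52 were higher with anti-LAIR1 (0.373% of its 13924), and these included Cxcl9, Cxcl10 and Cxcl11. By limma-voom, 0 genes passed, and the log2 fold changes were 1.62 for Cxcl9, 1.34 for Cxcl10, 1.02 for Cxcl11, 0.23 for Cxcl16 and 1.21 for Cxcr6 (limma adjusted p from 0.445 to 0.682). The count of 5 is a description, since Cxcr6 was tested only through the group where it is high.

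In each library the level per kilobase of the longest coding transcript allows the genes to be ranked. In the controls Cxcl16 came first at 20.6 ± 1.25 CPM per kb (SD, n = 3), followed by Cxcl9 at 3.90 ± 0.953, Cxcl11 at 3.66 ± 0.392, Cxcl10 at 2.71 ± 0.319, Cxcr6 at 0.404 ± 0.118 and Cxcr3 at 0. With anti-LAIR1 the order of the means was kept, at 25.2 ± 4.14, 15.3 ± 8.14, 10.3 ± 5.80, 8.30 ± 4.48, 1.17 ± 0.708 and 0.139 ± 0.104 CPM per kb (SD, n = 4). In the controls Cxcl9 (3.31 to 5.0) and Cxcl11 (3.22 to 3.97) overlapped, while Cxcl10 (2.49 to 3.07) lay below Cxcl11 in every library. With anti-LAIR1 the ranges of Cxcl16 and Cxcl9, of Cxcl9 and Cxcl11 and of Cxcl11 and Cxcl10 overlapped, and Cxcr6 and Cxcr3 lay below them without overlap. The order of Cxcl10 and Cxcl11 also depends on the length used: per kilobase of all annotated exons they stood at 1.63 and 1.52 CPM per kb in the controls and at 4.99 and 4.31 with anti-LAIR1. In anti-LAIR1 replicate 4, and in no other library, Cxcl9 at 23.4 CPM per kb reached above Cxcl16 at 22.7.

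The ligand genes kept close company across the libraries and Cxcl16 did not follow them. Anti-LAIR1 replicate 4 was highest and replicate 1 second for Cxcl9, Cxcl10 and Cxcl11, whereas Cxcl16 and Cxcr6 were highest in replicate 1. Likeness was measured as the root mean square distance of log2 CPM over the 7 libraries, each gene centred on its own mean, where 0 is an identical profile. Of 13544 other genes, Cxcl11 was the second nearest to Cxcl10 and Cxcl10 the second nearest to Cxcl11 (0.25 on the log2 scale), and Cxcl9 was the fourth nearest to Cxcl11 (0.32). Cxcl11 and Cxcl10 ranked 6 and 13 for Cxcl9, Cxcr6 ranked 24 and Cxcl16 ranked 1130. All profiles come from the same 7 libraries, and the distance takes in the size of a difference as well as its pattern, so the ranks are a description.

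Genes nearest to Cxcl9 were Gbp4 (0.25), an interferon-inducible guanylate-binding protein, Batf2 (0.30), an interferon-induced transcription factor, and Gm12250 (0.30). Gbp4 averaged 24.6 ± 8.48 CPM (SD, n = 3) and 88.7 ± 44.5 CPM (SD, n = 4), with 114, 62.3, 41.2 and 137 CPM in anti-LAIR1 replicates 1, 2, 3 and 4, the same high pair as for Cxcl9. Nearest to Cxcl10 was Slamf8 (0.21), a receptor of myeloid cells, and the third was Tnfsf10 (0.26), the death ligand TRAIL. Fam169b (0.20) and Aoah (0.28), a lipopolysaccharide-degrading enzyme of phagocytes, came just before and just after Cxcl10 for Cxcl11. For Cxcr6 they were Ddx60 (0.08), an interferon-induced helicase, Gm5431 (0.23) and Gbp7 (0.24), another guanylate-binding protein. Cxcl16, whose profile is nearly flat, was nearest to Nampt (0.05), Cd164 (0.06) and Tmem120b (0.07). Slamf8 (12, 4 and 4 control counts) and Fam169b (12, 9 and 4) passed the count filter only through their anti-LAIR1 libraries, so their nearness is a description.

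Within-library ratios put the 3 ligands against Cxcl16 without any scaling of libraries. The log2 ratio of Cxcl9 to Cxcl16 counts was -1.92, -2.59 and -2.46 in the controls and -0.47, -1.50, -1.31 and 0.15 with anti-LAIR1, so that only in replicate 4 did Cxcl9 exceed Cxcl16. The group means differed by 1.54 (exact permutation p = 0.0571, adjusted over 8 ratios 0.171). For Cxcl10 to Cxcl16 the difference was 1.19 (exact permutation p = 0.0571, adjusted 0.171), and for Cxcl11 to Cxcl16 it was 1.04 (exact permutation p = 0.0857, adjusted 0.171). The groups did not overlap in any of these 3 ratios, though none passed. Cxcl9 to Cxcl10 differed by 0.35 between the groups (exact permutation p = 0.286, adjusted 0.457), with overlapping values from 1.45 to 1.79 and from 1.49 to 2.56.

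**Figure D2:**
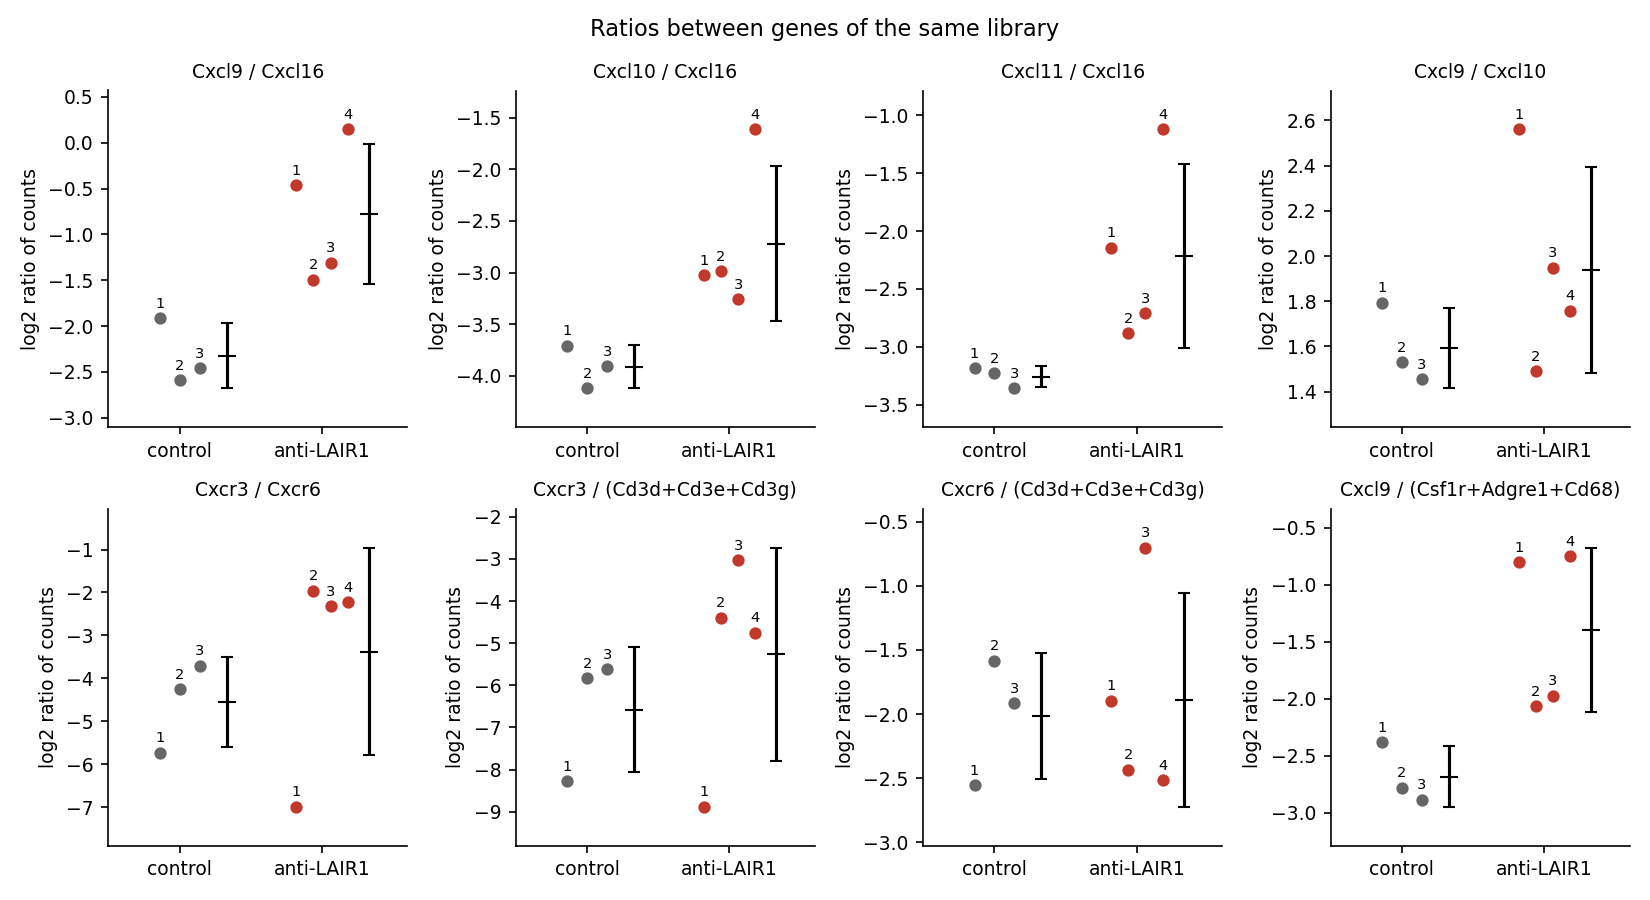
Log2 ratio of counts between genes of the same library (y axis, 1 panel per ratio with its own scale, 0.5 added to each count), with points for libraries numbered by replicate and bars for the mean ± SD. The ratios of Cxcl9, Cxcl10 and Cxcl11 to Cxcl16 and of Cxcl9 to macrophage genes do not overlap between the groups, while those of Cxcl9 to Cxcl10 and of the receptors do; the Cxcr3 panels rest on 0 to 6 counts a library.

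Set against T cell genes, the receptor ratios overlapped between the groups. The log2 ratio of Cxcr6 to the sum of Cd3d, Cd3e and Cd3g, subunits of the T cell receptor complex, averaged -2.02 ± 0.492 (SD, n = 3) in controls and -1.89 ± 0.836 (SD, n = 4) with anti-LAIR1, a difference of 0.13 (exact permutation p = 0.771, adjusted 0.771). That difference turned to -0.14 without control replicate 1 and to -0.27 without anti-LAIR1 replicate 3. Cxcr3 to the same sum differed by 1.31 (exact permutation p = 0.429, adjusted 0.490) and Cxcr3 to Cxcr6 by 1.18 (exact permutation p = 0.40, adjusted 0.490), values set by the 0.5 added to counts of 0. Cxcl9 to the sum of the macrophage genes Csf1r, Adgre1 and Cd68 was higher by 1.28 with anti-LAIR1 (exact permutation p = 0.0857, adjusted 0.171), with every anti-LAIR1 library above every control. In bulk tumour RNA, fewer cells of a type and less RNA per cell cannot be told apart.

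Summed levels of leukocyte and muscle markers were higher with anti-LAIR1, but not every sum followed the ligands from library to library. Summed over 6 genes of all leukocytes (0 of them at 0), levels ranged from 91.6 to 107 CPM in controls and from 131 to 164 CPM with anti-LAIR1, where replicates 1 and 4 were again the highest. The 12 macrophage markers summed to between 313 and 363 CPM and to between 385 and 493 CPM, without overlap. Their highest sum was in anti-LAIR1 replicate 3, of the low pair for Cxcl9. A sum of CPM weighs genes by their level, here with Mrc1 the highest (means 91.6 and 135 CPM). The macrophage gene Csf1r alone had another order, at 59.4, 63.1, 58.5 and 76.2 CPM in anti-LAIR1 replicates 1, 2, 3 and 4. T cell markers, 14 in all, ranged from 6.96 to 22.3 CPM and from 12 to 52.7 CPM. Here control replicate 1 at 22.3 CPM lay above anti-LAIR1 replicate 3 at 12 CPM, although its Cxcl9 was lower. The 8 NK cell markers ranged from 4.17 to 7.80 CPM and from 6.30 to 21.3 CPM, with Prf1 the highest (means 3.32 and 6.50 CPM). The NK receptor gene Ncr1 was at 0 in all controls but only at 0.088 ± 0.107 CPM (SD, n = 4) with anti-LAIR1, with overlap. Klra8 was at 0 in every library, and Klrb1c averaged 0.167 and 0.194 CPM. B cell markers stayed under 0.8 CPM in every library and Ms4a1 was at 0 in all 7. The 8 muscle markers ranged from 4.99 to 8.15 CPM in controls and from 10.2 to 117 CPM with anti-LAIR1. Most of the sum was Ttn, at means of 4.43 and 63.4 CPM. Myh4 and Pvalb were at 0 in all controls but only at 0.629 ± 0.479 and 0.083 ± 0.100 CPM (SD, n = 4) with anti-LAIR1, both with overlap. The muscle sum was low in anti-LAIR1 replicate 2 (10.2 CPM) but not in replicate 3 (81.8 CPM), though both replicates belong to the low pair for Cxcl9. Among other types, endothelial sums did not overlap either (97.0 to 127 and 133 to 158 CPM). Those of fibroblast, dendritic cell, neutrophil and lung markers did overlap. The dendritic cell sum was mostly Fscn1 (means 221 and 189 CPM) and the lung sum mostly Sftpb (1361 and 1754 CPM). Of 5 dendritic cell genes tested, 4 had a positive log2 fold change and 1, Fscn1, a negative one. Itgax (8.61 and 14.9 CPM) and H2-DMb2 (0.903 and 3.71 CPM) were higher without overlap, as were 3.06% of all genes tested. H2-DMb2 had 26, 17 and 4 counts in controls. As a check of the tissue, the 6 epithelial markers, none at 0, summed to between 4310 and 5110 CPM in controls and to between 4280 and 5320 CPM with anti-LAIR1.

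The covariate fits used the mean log2 CPM over the genes of a list, not the sum of their CPM. With the leukocyte mean as a covariate in the edgeR fit, the log2 fold changes were 0.22 (SE 0.32) for Cxcl9, 0.10 (SE 0.33) for Cxcl10 and -0.16 (SE 0.37) for Cxcl11. Cxcr6 then stood at 0.28 (SE 0.84) and Cxcl16 at 0.24 (SE 0.24), the latter close to its value without the covariate but with a larger SE (0.13 without it). With the muscle mean instead the values were 0.97 (SE 0.52), 1.16 (SE 0.55) and 0.54 (SE 0.49) for the 3 ligands, 0.37 (SE 0.69) for Cxcr6 and 0.19 (SE 0.20) for Cxcl16. The edgeR adjusted p was 0.964 or higher for all 5 genes in both fits. The CPM sums of both lists are fully separated between the groups, though the sums were not the covariates. These fits tell group and covariate apart only by variation within the groups of 3 and 4.

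**Figure D3:**
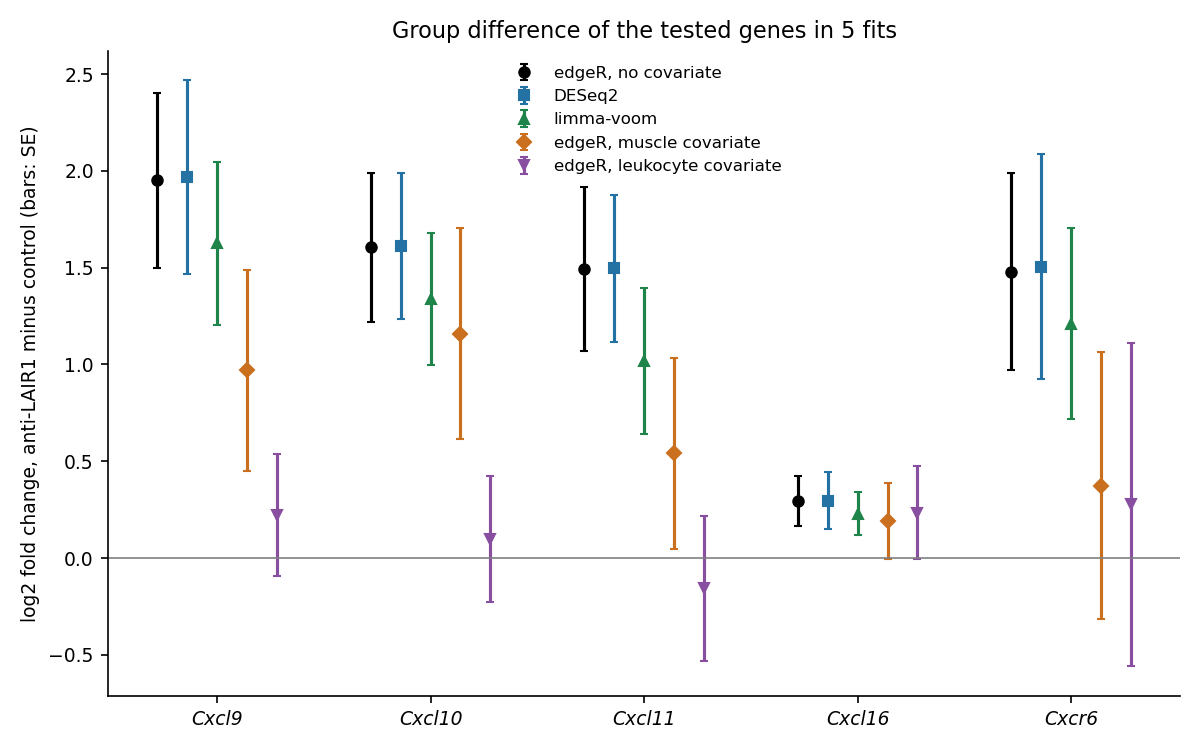
Log2 fold change, anti-LAIR1 minus control (y axis, bars are standard errors), of the 5 tested genes in 5 fits of the 7 libraries. Cxcl9, Cxcl10 and Cxcl11 lie between 1.0 and 2.0 in the edgeR, DESeq2 and limma-voom fits without a covariate and near 0 with the leukocyte mean log2 CPM as covariate. Cxcl16 moves little, but with either covariate it is within 1 SE of 0.

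**Figure D4:**
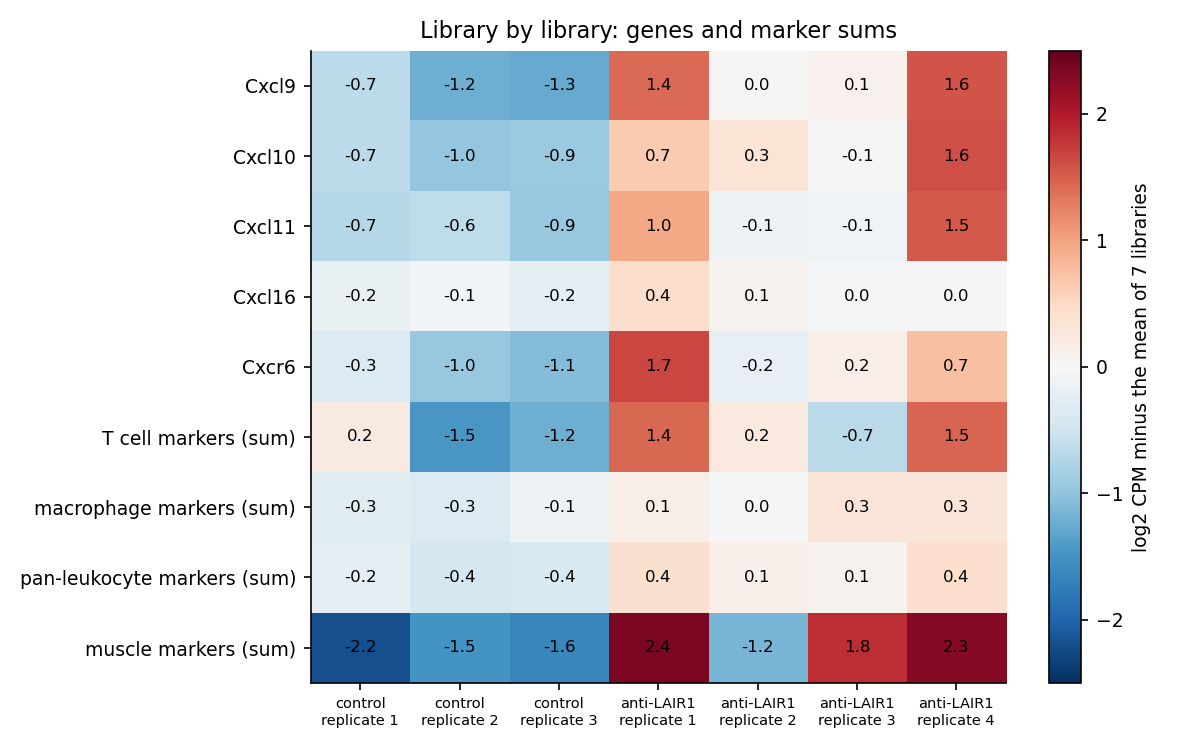
Log2 CPM minus the mean of the 7 libraries (colour and printed value) for the 5 tested genes and 4 marker sums (rows) in each library (columns). Anti-LAIR1 replicates 1 and 4 are high for the ligands, the T cell, leukocyte and muscle sums, and replicate 2 is the one anti-LAIR1 library with a low muscle sum.

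Genes upstream of the ligands were measured from a list of 18 covering interferons, their receptors, the kinases and factors that relay their signal, TNF and NF-kB. Of the 16 tested, 0 passed edgeR's adjusted threshold, 13 had a positive log2 fold change and the median was 0.10, against 49.1% positive and a median of 0.00 over all genes tested. At an unadjusted edgeR p under 0.05, 4 were higher and 0 lower, against 476 (3.51%) higher and 221 lower among the 13545 genes tested. Ifng, which encodes interferon gamma, had 11, 3 and 0 counts in controls and 6, 4, 6 and 10 with anti-LAIR1, too few to be tested, and its groups overlapped.

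Irf1, an interferon-induced transcription factor, stood at 119, 69.5 and 62.0 CPM in controls and at 196, 113, 99.9 and 167 CPM with anti-LAIR1. Control replicate 1 thus exceeded anti-LAIR1 replicates 2 and 3 for Irf1, which it did for none of the 5 tested chemokine and receptor genes. Irf1 had a log2 fold change of 0.78 (SE 0.31) and an edgeR adjusted p of 0.947. Socs1, a feedback inhibitor of JAK signalling, was the only listed gene without overlap, at 2.85 ± 0.868 CPM (SD, n = 3) and 5.97 ± 2.69 CPM (SD, n = 4) (log2 fold change 1.06, SE 0.37, edgeR adjusted p = 0.933).

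Genes that process or bind these chemokines, 9 in all, showed no common direction. Of 6 tested, 2 had a positive and 4 a negative log2 fold change, with a median of -0.01, and 0 passed. Dpp4, a protease that trims CXCL9, CXCL10 and CXCL11, averaged 1.70 ± 1.57 CPM (SD, n = 3) and 3.02 ± 1.61 CPM (SD, n = 4), with overlapping groups (log2 fold change 0.83, edgeR adjusted p = 1.00). Sdc1, a heparan sulphate proteoglycan of the kind that holds chemokines at cell surfaces, averaged 992 ± 125 and 863 ± 68.7 CPM (log2 fold change -0.20, edgeR adjusted p = 0.980).

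Other chemokine genes were described by lists of their own. Among 13 other CXC ligands and receptors, 10 were tested, 6 with a positive log2 fold change and a median of 0.33, and 0 passed. The gene with the smallest p was Cxcr4, the receptor of CXCL12, at 6.87 ± 1.19 CPM (SD, n = 3) and 10.3 ± 1.99 CPM (SD, n = 4), and its log2 fold change was 0.59 (SE 0.21, adjusted p = 0.933 by edgeR). Of 13 CC chemokines and receptors that guide T cells, 6 were tested, 5 with a positive value and a median of 0.47, and 0 passed.

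Genes of type 1 and tissue-resident T cells, in which CXCR3 and CXCR6 are typically found, numbered 13. Of the 8 tested, 7 had a positive log2 fold change with a median of 0.67, 4 were higher at an unadjusted edgeR p under 0.05, and 0 passed. Over all genes tested these shares were 49.1% positive and 3.51% higher at that p. Some of the 8, such as Itga1 (means 80.8 and 97.2 CPM) and Bhlhe40 (394 and 336 CPM), lay far above Cd3e (2.42 and 5.94 CPM). Whether T cells made them was not tested. Tbx21, Eomes, Ifng and Cd69 were not tested by edgeR and overlapped between the groups. The list sum overlapped too (574 to 590 and 539 to 686 CPM). Il12rb1, a subunit of the interleukin 12 receptor, averaged 1.91 ± 0.554 CPM (SD, n = 3) and 4.96 ± 2.95 CPM (SD, n = 4), with overlap (log2 fold change 1.36, SE 0.48, edgeR adjusted p = 0.933). Of 14 T cell markers 11 were tested, of which 11 had a positive log2 fold change with a median of 1.40, 4 were higher at an unadjusted edgeR p under 0.05, and 0 passed, beside the same 49.1% and 3.51% over all genes tested. Cd8a, of cytotoxic T cells, stood at 4.63, 0.449 and 1.02 CPM and at 10.5, 3.99, 1.90 and 9.37 CPM, again with control replicate 1 above anti-LAIR1 replicates 2 and 3. Cd4, of helper T cells, did not overlap, at 0.203 ± 0.135 CPM (SD, n = 3) and 1.33 ± 0.603 CPM (SD, n = 4) (log2 fold change 2.48, SE 0.58, edgeR adjusted p = 0.624). Its controls held 9, 2 and 1 counts, all under the 0.753 CPM that the count filter needed, which every anti-LAIR1 library reached. Cd4 was thus tested only through the group where it is high. Other T cell markers also had controls under that level and needed anti-LAIR1 libraries to pass. Among them were Cd8a (0.449 CPM in control replicate 2), Cd5 (control mean 0.428 CPM) and Cd8b1 (control mean 0.595 CPM). The values of Cd4, and the count of 11, the median of 1.40 and the 4 higher genes of the list, are therefore a description. Csf1r, the growth factor receptor of macrophages, averaged 42.5 ± 3.75 and 64.3 ± 8.20 CPM without overlap (log2 fold change 0.59, SE 0.12, adjusted p = 0.608 by edgeR and 0.00953 by DESeq2).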

How the data were processed

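Polyadenylated RNA of 7 tumours, 3 control and 4 anti-LAIR1, was sequenced as directional single-read libraries, per the labels' protocols. What the authors deposited is a single table of unnormalized counts, with gene symbols as rows. The submitters' processing notes name STAR 2.7.6, featureCounts 2.0.1, Trim Galore, edgeR 3.40.1 and mm10. Annotation, strand setting and multi-match reads: not given in the sources used here, so counts of overlapping genes (Cxcl10 and Cxcl11 with Art3, Cxcl16 with Zmynd15, Cxcr6 with Fyco1) are uncertain. Library totals ran from 9879762 to 26255727 counts, where 3 counts are worth from 0.305 down to 0.119 CPM. Floors and intervals hold counting error alone.

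Counts were fitted as deposited in R 4.3.3 with edgeR 4.0.16 (filterByExpr at a minimum count of 10, TMM scaling, robust quasi-likelihood test, Benjamini-Hochberg adjustment over 13545 genes, threshold 0.05), over all 7 libraries with no covariate. The common biological coefficient of variation was 0.182. Alternatives were DESeq2 1.42.0, voom with quality weights in limma 3.58.1, other scalings and filters, thinning to the smallest total, the mean log2 CPM of the muscle or leukocyte markers as a covariate, and leaving out each library. Within-library ratios used log2 of counts plus 0.5 and an exact two-sided permutation test over 35 splits, with Benjamini-Hochberg adjustment over 8 ratios. The scripts were tested on simulated data. Figures were drawn with matplotlib 3.10.9. Log2 CPM for profile distances used a prior count of 2. Coordinates and start-site sequences come from RefSeq tables of GRCm38 (mm10), which held 23204 of the symbols (95.0%), and transcript lengths from GENCODE M21. Start-site sequences were found for 4 of the 6 genes.

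The genes and lists were chosen with earlier results of these data known. Named genes were the 6 genes, genes overlapping them, Ifng, Irf1, Dpp4, Cd3e, Cd8a, Csf1r and Ptprc, the tested gene of each list with the smallest p, and the 3 genes nearest to each tested one, of which those a result turns on are given. Some genes that this rule names are not reported here.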

Additional observations from a re-analysis of the deposited data

Results flagged for a closer look

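Anti-LAIR1 replicate 4 stood apart in the log2 ratio of Cxcl10 to Cxcl16 counts, at -1.61 against -3.03, -2.99 and -3.26 in the other 3 anti-LAIR1 libraries, a gap large for the spread of a group of 4. Its Cxcl10 was 19.98 CPM and its Cxcl16 61.2 CPM, so the ratio was set by Cxcl10. Anti-LAIR1 replicate 1 stood apart in the log2 ratio of Cxcr3 to Cxcr6, at -6.99 against -1.96, -2.32 and -2.23. It had 63 counts of Cxcr6, the most of any library, and 0 of Cxcr3, where the other 3 had 4, 3 and 6. Of 14 groups of values looked at, these 2 stood out, and chance alone gives such a value in about 1 of 20 groups.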

How the results depend on the processing

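Of 16 alternatives, 14 left the number of genes past the adjusted threshold at 0. DESeq2 called 54, and leaving out each library gave between 0 and 3, the 3 without anti-LAIR1 replicate 2. DESeq2 also moved the 3 ligands past the threshold, with log2 fold changes of 1.97 for Cxcl9, 1.61 for Cxcl10 and 1.496 for Cxcl11 (DESeq2 adjusted p = 0.0271, 0.0102 and 0.0264). The leukocyte covariate turned Cxcl11 to -0.16, and the cause was not tested. The values of Cxcl9, Cxcl10, Cxcl16 and Cxcr6 were positive under all 16. With the leukocyte covariate, however, those of Cxcl9 (0.22, SE 0.32), Cxcl10 (0.10, SE 0.33), Cxcl16 (0.235, SE 0.241) and Cxcr6 (0.28, SE 0.84) were within 1 SE of 0. Leaving out each library in turn gave 1.67 to 2.19 for Cxcl9, 1.17 to 1.80 for Cxcl10, 1.10 to 1.70 for Cxcl11, 0.18 to 0.35 for Cxcl16 and 0.99 to 1.78 for Cxcr6, with every value positive. The ratio of Cxcr6 to the Cd3 genes ran from -0.27 to 0.35 in the same way, its sign turning without control replicate 1 (-0.14) or anti-LAIR1 replicate 3 (-0.27). Adding 2 in place of 0.5 to counts changed no side of the threshold for the 8 ratios, but took Cxcr3 to Cxcr6 from 1.18 to 0.10 and Cxcr3 to the Cd3 genes from 1.31 to 0.15. Other scalings moved the median over all genes by at most 0.03. Depth limits what can be said of Cxcr3, at 0 to 6 counts a library. No paired analysis was possible because the labels give no replicate numbers: those used here were assigned in the order of the samples within each group and only name the libraries.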

Other observations

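Some chemokine genes of the lists had another order of libraries than the CXCR3 ligands; they were chosen after their values were seen. Cxcl12, which stromal cells make, stood at 1.07, 5.84 and 4.99 CPM in controls and at 4.08, 19.8, 21.2 and 7.92 CPM in anti-LAIR1 replicates 1, 2, 3 and 4. It was highest in the pair of tumours, replicates 2 and 3, where Cxcl9, Cxcl10 and Cxcl11 were lowest within the group, and the groups overlapped (log2 fold change 1.80, SE 0.75, edgeR adjusted p = 0.966). Cxcl13, which attracts B cells, was likewise highest in replicates 2 and 3, with 1, 5 and 0 counts in controls and 10, 19, 22 and 7 with anti-LAIR1, and was not tested by edgeR (DESeq2 adjusted p = 0.226). Its groups did not overlap in CPM.

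The few counts of Ccr6, the receptor of CCL20, were lower with anti-LAIR1, while those of its ligand gene were higher. Ccl20 had 1, 1 and 1 counts in controls and 14, 2, 8 and 6 with anti-LAIR1, and Ccr6 had 2, 2 and 5 counts in controls and 0, 1, 0 and 1 with anti-LAIR1. Neither had enough counts to be tested, and both were chosen after their values were seen. The lowest control for Ccr6 was at 0.0792 CPM and the highest anti-LAIR1 library at 0.0727 CPM. Both values are under the 0.119 CPM that 3 counts are worth in the largest library, so no direction can be given for Ccr6.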
